A study of Arabidopsis thaliana with 12 samples.

Results

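The response of wild type Arabidopsis thaliana leaves to watering with a sodium sulfide (Na2S) solution was described from 6 of the 12 arrays of the series. The members are the 3 arrays labelled as leaves of wild type plants given Na2S and the 3 labelled as leaves of wild type plants given water, and the response of a gene is the mean of the former minus the mean of the latter on the log2 scale. Wild type was the accession Col-0. All plants grew in soil under 16 h of light at 20 °C and 8 h of dark at 18 °C, for 20 days without treatment and then for 10 days with water or with Na2S, which the labels give as 200 mM, and leaves were taken at 30 days. The dose was not checked by the arrays and is uncertain. The other 6 arrays come from des1-1, a single T-DNA insertion line of the cysteine desulfhydrase gene DES1, grown and treated in the same way, and they give a response measured on other plants. They also enter the variance behind the wild type standard errors and p-values, and with the wild type arrays alone 6452 probe sets passed in place of 6919. The untreated groups received plain water, so that sulfide, sodium and the alkalinity of the solution cannot be told apart. The design text calls the 3 replicates of a group biological.

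Sulfide is a normal intermediate of sulfur assimilation in leaves. Sulfite reductase makes it in the plastid, O-acetylserine(thiol)lyases fix it into cysteine, and desulfhydrases such as DES1 release it again from cysteine in the cytosol. It is known as a signal that modifies protein cysteines, that acts in the closure of stomata and that represses autophagy in Arabidopsis, and in excess it inhibits cytochrome c oxidase of the mitochondrion.

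RNA was hybridised to Affymetrix ATH1 arrays, which read most genes with 1 set of short probes near the 3′ end. Levels below are the deposited log2 values, and a step of 1 is a doubling. After 64 control probe sets were set aside, 22746 probe sets were tested. Array medians lay between 5.71 and 5.80 and lower quartiles between 3.69 and 3.90, and a level under the lower quartile of its array is called dim. Arrays of a group correlated across probe sets at 0.9938 to 0.9975 with water and at 0.9929 to 0.9974 with Na2S, and water arrays with Na2S arrays at 0.9679 to 0.9727. Treated wild type and treated des1 arrays were more alike (0.9883 to 0.9961) than either was to untreated wild type (0.9679 to 0.9731) or to untreated des1 (0.9653 to 0.9734), and the untreated groups were least alike (0.9451 to 0.9482). Of the 64 control probe sets 3 passed the test, a pair for the 5′ end of ubiquitin (0.43 and 0.40 higher with Na2S) and a spike-in (0.30 higher), while the 25S rRNA control differed by -0.26 without passing. Harvest hour, array batch and scan date are not in the labels, and their part in the results was not tested. The arrays read whole leaves, in which fewer cells of a type and less RNA per cell cannot be told apart.

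With Na2S 6919 probe sets passed the test (30.4% of those tested, limma with Benjamini-Hochberg adjusted p under 0.05), 3409 of them higher (15%) and 3510 lower (15.4%). The changes were mostly small. The median size of a passing difference was 0.59 on the log2 scale, with quartiles of 0.43 and 0.92, against a median standard error (SE) of 0.12. A change of at least 2-fold was seen in 1492 probe sets (6.56%), 713 higher (3.13%) and 779 lower (3.42%), one of at least 4-fold in 122 higher and 163 lower, and one of at least 16-fold in 8 higher and 13 lower. In 6689 of the 6919 the 3 water values and the 3 Na2S values did not overlap, and no overlap was also found in 40.9% of all probe sets. Passing was rare among dim probe sets, with 3.99% in the lowest quartile by mean level against 48.9% in the highest.

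**Figure D1:**
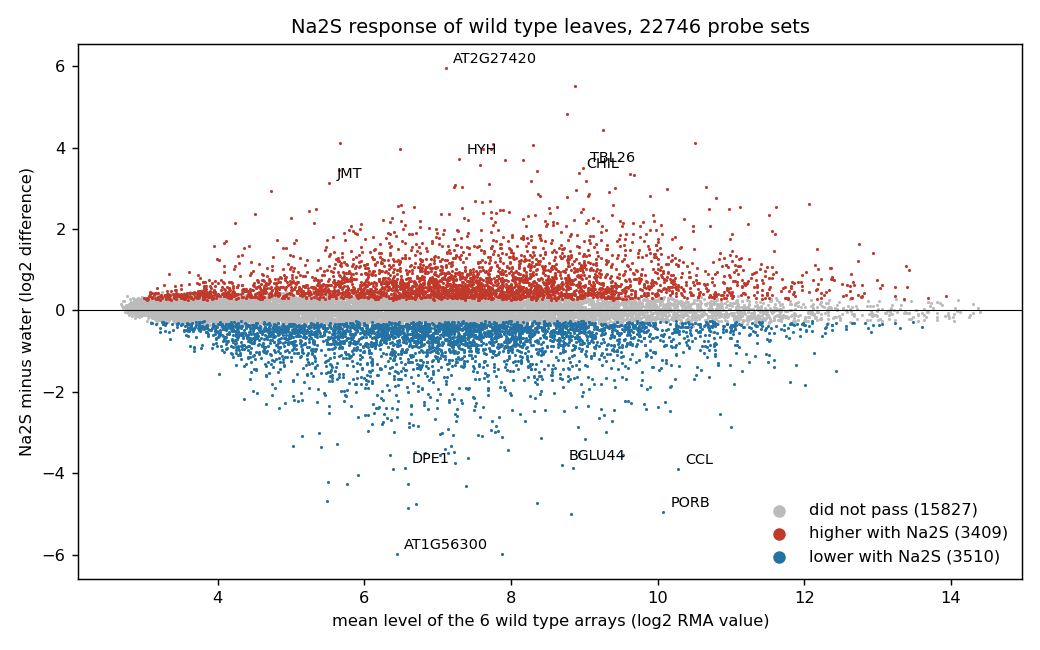
Each point is 1 of the 22746 probe sets, placed by its mean log2 level over the 6 wild type arrays (horizontal axis) and by its log2 difference, Na2S minus water (vertical axis), with 3409 that passed as higher in red, 3510 that passed as lower in blue and the rest in grey. The longest differences reach 5.95 upward (AT2G27420) and -5.99 downward (AT1G56300), and few dim probe sets passed.

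Among probe sets assigned to a single gene and with no overlap between the groups, the largest rise was that of AT2G27420. It read 4.24, 4.28 and 3.90 on the water arrays (replicates 1 to 3) and 10.17, 10.02 and 10.07 on the Na2S arrays. Its level was thus near the lower quartile in every water sample and among the bright probe sets in every Na2S sample, with a log2 difference of 5.95 ± 0.12 (SE, n = 3 per group, limma adjusted p = 2.77e-16). HYH, a bZIP transcription factor related to HY5 that acts in light responses, read 5.44, 5.22 and 5.65 with water and 9.31, 9.18 and 8.96 with Na2S. All Na2S values lay more than 3 units above all water values (3.71 ± 0.13, adjusted p = 2.8e-13). JMT, which makes methyl jasmonate from jasmonic acid, read 3.91, 3.99 and 3.98 with water and 7.10, 7.12 and 7.03 with Na2S (3.12 ± 0.12, adjusted p = 7.56e-13). The JMT groups were tight and far apart, and the water level was only just above the lower quartile.

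TBL26, of a family of enzymes that acetylate wall polysaccharides, rose from 7.32, 7.20 and 7.17 to 10.70, 10.79 and 10.73 (3.51 ± 0.10, adjusted p = 4.63e-14). CHIL, a chalcone isomerase-like protein of flavonoid synthesis, rose by 3.38 ± 0.11. AT5G48570, known as ROF2 or FKBP65, a peptidyl-prolyl isomerase of the heat response, rose from 5.97, 5.62 and 5.87 to 8.91, 8.79 and 8.84 (3.03 ± 0.10, adjusted p = 2.1e-13). The groups of these 3 genes did not overlap, which was a condition for a place among the 15 largest rises. The other 9 of the 15 largest rises carry only a locus name in the annotation used here, and they were AT5G42760 (3.71), AT5G47610 (3.57), AT3G28270 (3.32), AT5G54130 (3.18, and 2.60 on its other probe set), AT3G15310 (3.08), AT5G15950 (3.0), AT1G26790 (2.94, dim on all 3 water arrays), AT1G64500 (2.90) and AT1G06000 (2.79). AT3G15310 is listed there as a pseudogene.

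The largest fall was that of AT1G56300, from 9.32, 9.50 and 9.50 with water to 3.50, 3.52 and 3.32 with Na2S (-5.99 ± 0.10, adjusted p = 1.77e-17). Its Na2S values were all dim, where array values are compressed. PORB, a protochlorophyllide oxidoreductase that needs light to make chlorophyllide, read 12.44, 12.71 and 12.50 with water and 7.61, 7.64 and 7.55 with Na2S. It went from among the brightest probe sets to a middle level in all 3 samples, a 30.9-fold fall (-4.95 ± 0.10, adjusted p = 3.5e-16). CCL, whose transcript is known to cycle over the day, read 12.15, 12.33 and 12.20 with water and 8.30, 8.29 and 8.39 with Na2S (-3.90 ± 0.09, adjusted p = 3.13e-15). DPE1, the plastid disproportionating enzyme that acts on maltotriose in starch breakdown, read 8.54, 8.68 and 8.25 with water and 4.41, 4.89 and 4.54 with Na2S (-3.88 ± 0.15, adjusted p = 7.56e-13). BGLU44, a beta-glucosidase, read 10.61, 10.55 and 10.60 with water and 6.86, 6.92 and 6.59 with Na2S (-3.80 ± 0.10, adjusted p = 1.81e-14). The water and Na2S values of these 5 genes did not overlap, which was a condition for the largest falls as well.

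The other 10 of the 15 largest falls have a locus name only. They were AT3G62550 (-4.99), AT5G62360 (-4.84), AT3G47160 (-4.75), AT4G30660 (-4.74), AT2G39920 (-4.69), AT4G16146 (-4.26), AT2G15960 (-3.86), AT4G30650 (-3.55), AT3G51660 (-3.54) and AT1G70820 (-3.53). AT4G30660 and its neighbour by locus number AT4G30650 both fell, the former from 10.95, 10.31 and 10.90 to 5.91, 6.02 and 6.01 and the latter from 8.80, 8.62 and 8.99 to 5.62, 5.15 and 4.99. With Na2S AT2G39920 was dim on all 3 arrays and AT4G16146 on 2 of them. All 30 largest changes kept their call under each alternative that gave a value.

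**Figure D2:**
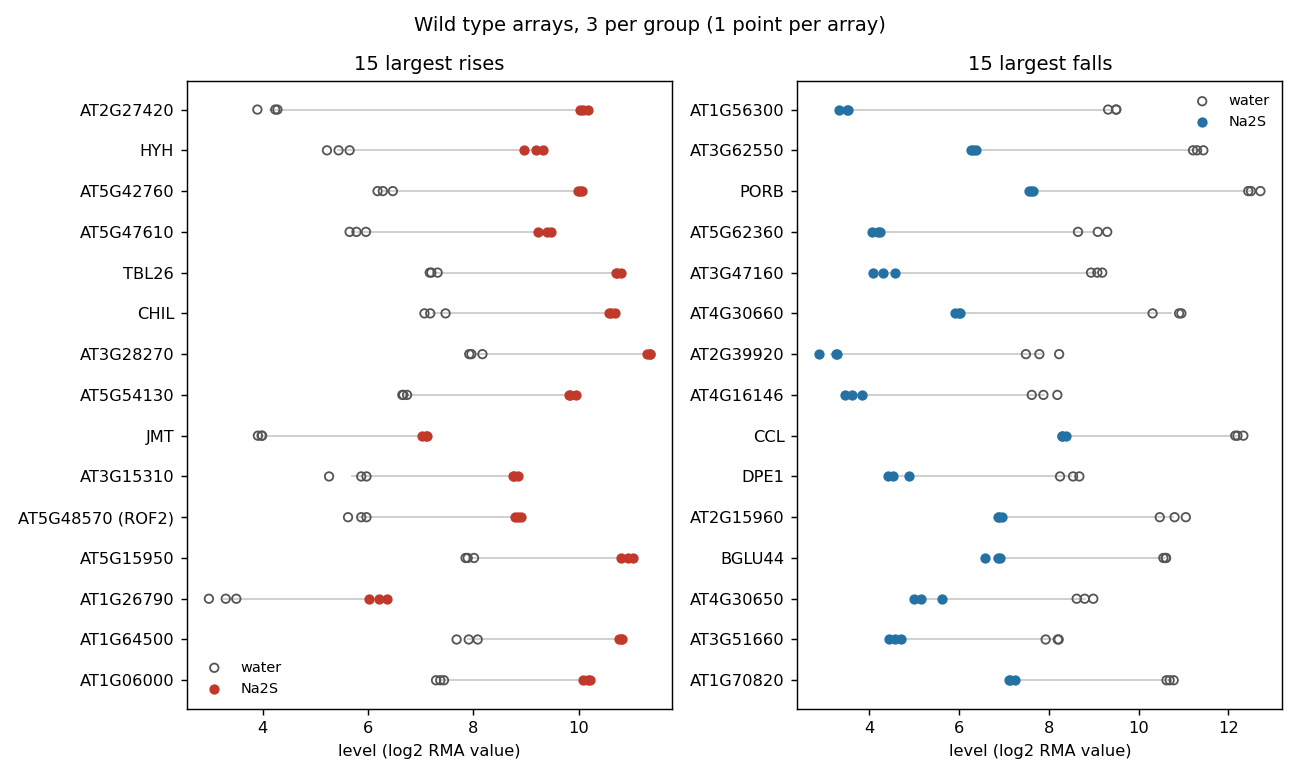
Log2 level on each wild type array for the 15 largest rises (left) and the 15 largest falls (right) among probe sets of a single gene, with open circles for the 3 water arrays, filled circles for the 3 Na2S arrays and a grey line between the group means. The 30 genes were chosen among those with no overlap, so the water and the Na2S points are separate by that choice. The AT1G56300 points with Na2S lie at 3.32 to 3.52.

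Genes of known pathways were then read as groups. The lists were chosen with earlier results of these data known, so that their counts are no support for a group. Only members with a probe set assigned to that gene alone were used, and for most lists these are a minority of the genes the pathway holds, so that a count below describes the measured genes and not the whole pathway. Of all probe sets 15% rose and 15.4% fell, with a median difference of 0.03. These shares pool dim and bright probe sets, and are too low a yardstick for lists of bright genes. Passing ran from 3.99% in the lowest quartile by mean level to 48.9% in the highest. With water, chlorophyll synthesis genes averaged 9.55 to 9.64 per array and autophagy genes 7.83 to 8.05, above the upper quartiles of those arrays (7.73 to 7.74). Whether a list passed more often than probe sets of its level was not tested.

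The measured genes of chlorophyll synthesis fell or did not pass. Of 9 genes 5 fell, 0 rose and 4 did not pass, with a median difference of -0.60. Next to PORB these were CHLI2, a subunit of the magnesium chelatase, the uroporphyrinogen decarboxylases HEME1 and HEME2, and GSA1, a glutamate-1-semialdehyde aminotransferase of the early steps. CHLI2 read 10.05, 10.13 and 10.02 with water and 8.80, 8.64 and 8.52 with Na2S (-1.41 ± 0.11, adjusted p = 8.54e-09). HEME1 read 10.11, 9.75 and 10.13 with water and 8.74, 8.84 and 8.74 with Na2S (-1.22 ± 0.12, adjusted p = 2.49e-07). HEME2 read 11.17, 11.12 and 11.17 with water and 10.25, 10.13 and 9.98 with Na2S (-1.03 ± 0.10). GSA1 differed least of the 5 (-0.60 ± 0.12), and the groups of each of the 5 genes were separate. Separation adds little to a call, here and in the lists below. Of the 6919 passing probe sets 6689 had separate groups, as did 40.9% of all probe sets. The methyltransferase gene CHLM (-0.03 ± 0.10) and HEMB1 (-0.24 ± 0.10, adjusted p = 0.1) did not pass. HEME2 and GSA1 were named after their values were seen.

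Nuclear genes of the photosynthetic apparatus moved little. Of 10 nuclear genes of the photosystems and the Calvin cycle 3 rose, 0 fell and 7 did not pass, with a median of -0.03. LHCB4.3, a minor light-harvesting protein, rose by 0.81 ± 0.12, SBPASE, the sedoheptulose bisphosphatase, by 0.59 ± 0.10 and PRK, the phosphoribulokinase, by 0.55 ± 0.12. RCA, the Rubisco activase, which was bright on every array, differed by 0.16 ± 0.09 (adjusted p = 0.194). Of 69 genes encoded in the plastid genome 13 fell, 1 rose and 55 did not pass, with a median of -0.21. The Na2S arrays differed among themselves. The mean level of the 69 genes was 9.66, 9.69 and 9.65 with water and 9.75, 9.18 and 9.34 with Na2S, so that Na2S replicate 1 lay above every water array and the other two below. Without Na2S replicate 1 30 of the 69 passed as lower, without Na2S replicate 2 or 3 only 3 and 4 did, and without water replicate 2 there were 7. With array weights 40 passed as lower. For ycf3, an assembly factor of photosystem I, the Na2S values were 9.10, 7.47 and 7.59 against 8.98, 9.37 and 8.47 with water, so that the groups overlapped (-0.89 ± 0.31). For rpl16, a ribosomal protein, the Na2S values were 11.07, 9.80 and 10.27 against 11.12, 11.35 and 11.08 (-0.80 ± 0.24), and for rpl20 they were 8.03, 7.38 and 7.51 against 8.58, 8.14 and 8.62 (-0.81 ± 0.18). Na2S replicate 1 was the highest of its group in these 3 genes. The ycf3 call was lost without water replicate 1 or 2 or Na2S replicate 2 or 3 (adjusted p 0.0858 to 0.184), with trended robust variances (0.143) and with wild type arrays alone (0.0919), and that of rpl16 without replicate 2 of either group (0.0636 and 0.103) and with trended robust variances (0.0716). The only plastid rise, psbI (0.88 ± 0.29), was lost without replicate 1 or 2 of either group (0.0528 to 0.117) and with trended robust variances (0.127). Of 16 mitochondrial genes 3 rose and 0 fell (median 0.12), with the cytochrome c maturation gene ccb452 at 0.67 ± 0.10 and the complex I genes nad9 and nad1 at 0.45 ± 0.11 and 0.40 ± 0.11. On its other probe sets nad1 differed by 0.32, 0.57 and 0.32, which passed, and by 0.16, 0.12 and 0.09, which did not.

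Few clock and light genes had a probe set of their own. Of 2 clock genes both fell. GI, an evening gene of the clock and of the photoperiod pathway, read 7.72, 7.64 and 7.60 with water and 5.91, 6.19 and 6.03 with Na2S (-1.61 ± 0.12, adjusted p = 4.66e-09), next to CCL above. The transcripts of GI and CCL follow the hour of day in wild type, and that hour is not in the labels. Of 3 light signalling genes HYH rose, HAT2 did not pass (-0.23 ± 0.10, adjusted p = 0.102) and FHL, which brings phytochrome A into the nucleus, was lower by a small margin at a dim level (-0.34 ± 0.11). The FHL call was lost without water replicate 1 or Na2S replicate 2 (adjusted p = 0.0871 and 0.107) and with arrays centred on their medians (0.0531).

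Starch genes held the large fall of DPE1 and a smaller one of PWD (AT5G26570), the phosphoglucan water dikinase that primes starch granules for breakdown. PWD read 9.01, 8.78 and 9.03 with water and 7.59, 7.50 and 7.67 with Na2S, with no overlap (-1.35 ± 0.10, adjusted p = 7.31e-09). Of 7 starch genes 3 fell, 2 rose and 2 did not pass (median -0.14). The other 3 calls were small, and each was lost when single arrays were left out. SBE2.2, a starch branching enzyme, at -0.37 ± 0.12, was lost without water replicate 1 or 3 or Na2S replicate 1 (adjusted p 0.0994 to 0.119) and with arrays centred on their medians (0.0516). APL3, a subunit of ADP-glucose pyrophosphorylase, at 0.36 ± 0.12, was lost without water replicate 2 or Na2S replicate 1 or 2 (0.0576 to 0.105). The dikinase gene AT4G24450, at 0.44 ± 0.14, was lost without water replicate 1 or 2 or Na2S replicate 2 or 3 (0.0553 to 0.0991).

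Sugar carriers went both ways according to the gene. Of 22 sugar transport genes 6 rose, 5 fell and 11 did not pass (median 0.04). SWEET2, a glucose carrier of the vacuole membrane, read 7.93, 7.82 and 8.05 with water and 10.05, 10.09 and 10.34 with Na2S (2.23 ± 0.11, adjusted p = 2.16e-11). SWEET1, a glucose carrier of the plasma membrane, rose by 1.53 ± 0.15 and SAG29, also named SWEET15, a sucrose carrier linked to senescence, by 1.3 ± 0.14. TMT1, a proton-coupled monosaccharide carrier of the vacuole membrane, read 8.47, 8.03 and 8.31 with water and 6.81, 7.09 and 7.17 with Na2S (-1.25 ± 0.13, adjusted p = 6.36e-07). SWEET16, a sugar carrier of the same membrane, fell by 1.02 ± 0.17 on the log2 scale and TMT2 by 0.45 ± 0.10. The groups were separate in each of these 6 genes, as in most probe sets that passed. The phloem loading carrier SWEET11, held in the list of phloem markers, rose by 0.99 ± 0.10.

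Flavonoid genes went both ways, with 3 rises and 2 falls. CHIL read 7.18, 7.07 and 7.47 with water and 10.68, 10.60 and 10.57 with Na2S. UGT78D2, a flavonoid 3-O-glucosyltransferase, read 7.68, 7.90 and 7.67 with water and 10.00, 9.92 and 9.96 with Na2S (2.21 ± 0.10, adjusted p = 5.07e-12). UGT78D1, a flavonol 3-O-rhamnosyltransferase, read 8.13, 8.19 and 8.10 with water and 9.96, 9.74 and 9.82 with Na2S (1.70 ± 0.09, adjusted p = 1.45e-10). All Na2S values of these 3 genes were above all water values. DFR, the reductase at the entry to anthocyanins, went the other way, from 5.50, 5.57 and 5.49 with water to 4.21, 4.21 and 4.37 with Na2S (-1.26 ± 0.12, adjusted p = 1.54e-07). UF3GT, which adds xylose to anthocyanins, was lower with no overlap (-0.54 ± 0.19, adjusted p = 0.0367), a call lost without any 1 of water replicates 1 to 3 or Na2S replicates 1 and 2 (adjusted p 0.0546 to 0.207) and in both rescalings (0.0521 and 0.0552). BAN (0.10 ± 0.16) and AT5MAT (-0.23 ± 0.15), the others of the 7 measured genes, did not pass, and the median of the list was 0.10.

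The wider family of UDP-glycosyltransferases, enzymes that attach sugars to hormones and other small molecules, showed no common direction. Of 51 genes 13 rose, 9 fell and 29 did not pass (median 0.10). UGT74D1, which acts on auxins, rose by 1.74 ± 0.11, and UGT71B1 and UGT87A2, named after their values were seen, by 1.61 ± 0.11 and 1.43 ± 0.09. UGT72E1, which acts on lignin precursors, fell by 1.63 ± 0.15, the sterol glucosyltransferase UGT80B1 by 1.37 ± 0.12 and UGT85A4 by 1.16 ± 0.12 on the log2 scale. Of 22 cytochromes P450 4 rose, led by CYP71B36 (1.35 ± 0.12), and 2 fell, CYP71B26 (-0.72 ± 0.12) and CYP71B22 (-0.69 ± 0.18).

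Few sulfur genes had a probe set of their own. Of 4 measured genes of sulfur uptake and assimilation 2 rose and 2 did not pass (median 0.26). SIR, the sulfite reductase that makes sulfide in the plastid, read 9.90, 9.98 and 9.71 with water and 10.38, 10.49 and 10.42 with Na2S, a separate but small step (0.57 ± 0.11, adjusted p = 0.000619). CPNIFS, a plastid cysteine desulfurase that supplies sulfur to iron-sulfur clusters, was higher by 0.44 ± 0.12, a call lost without replicate 2 of either group (adjusted p = 0.062 and 0.0655). The ATP sulfurylases APS3 (-0.16 ± 0.09) and APS4 (0.09 ± 0.11) did not pass, nor did BGLU28 (-0.06 ± 0.13), a thioglucosidase known to rise under sulfur deficiency. Of 4 glucosinolate genes 2 were lower, BCAT4, an aminotransferase of methionine chain elongation (-0.34 ± 0.10), and GSTU20 (-0.49 ± 0.14). The BCAT4 call was lost without water replicate 1 (adjusted p = 0.0693) and that of GSTU20 without water replicate 3 (0.0681).

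Glutathione and antioxidant genes held 3 rises and 0 falls among 9 (median 0.19). GR1, the cytosolic glutathione reductase, read 9.08, 9.18 and 8.98 with water and 10.60, 10.58 and 10.81 with Na2S (1.58 ± 0.11, adjusted p = 1.8e-09). GR, the reductase of plastids and mitochondria, rose by 0.76 ± 0.11 and CCS, the copper chaperone of superoxide dismutase, by 0.64 ± 0.11. Their groups did not overlap, which also holds for most probe sets that passed. The ascorbate peroxidases TAPX (-0.03 ± 0.12) and SAPX (0.19 ± 0.11) did not pass. Of 13 glutathione transferases 4 rose and 3 fell, with GSTU23 (1.25 ± 0.12) and GSTU16 (1.15 ± 0.11) the highest and GSTF4 (-0.50 ± 0.13) the lowest. Of the other two falls, that of GSTU20 is described above, and that of GSTU26 (-0.35 ± 0.13) was lost without any 1 of the 6 wild type arrays (adjusted p 0.0584 to 0.137) and in 4 of the other alternatives (0.0553 to 0.0862).

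Of 3 iron genes 2 fell and 1 rose, and cold genes were on the low side. BHLH101, a factor induced by iron deficiency, read 6.67, 6.85 and 6.82 with water and 4.92, 4.56 and 4.61 with Na2S, with all Na2S values lower (-2.08 ± 0.12, adjusted p = 3.31e-10). ILR3, a partner of that network, rose by 0.43 ± 0.10. PYE, a further regulator of the iron deficiency response, was lower (-0.35 ± 0.12), a call lost without water replicate 2 or 3 or Na2S replicate 1 or 3 (adjusted p 0.0627 to 0.153), with arrays centred on their medians (0.0597), with array weights (0.211) and with wild type arrays alone (0.0654). Of 5 genes of the abscisic acid, cold and dehydration response 4 fell and 1 did not pass (median -0.97). COR15B, a chloroplast protein of cold acclimation, read 7.21, 7.22 and 7.36 with water and 4.94, 4.84 and 5.14 with Na2S (-2.29 ± 0.13, adjusted p = 1.15e-10). LTI30, a dehydrin, read 6.70, 6.42 and 6.95 with water and 5.02, 4.87 and 5.14 with Na2S (-1.68 ± 0.15, adjusted p = 7.06e-08). COR15A fell by 0.97 ± 0.17 on the log2 scale and the dehydrin COR47 by 0.57 ± 0.12, and LEA4-5 differed by -0.37 ± 0.22 without passing. No overlap between water and Na2S was seen in the 4 that fell, nor in 6689 of all 6919 probe sets that passed. All 3 measured genes of sodium, potassium and proton transport, VHA-A2 (-0.13 ± 0.10), VHA-A3 (-0.16 ± 0.13) and CHX20 (0.26 ± 0.12), did not pass.

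Of 12 measured genes of autophagy, the delivery of cell contents to the vacuole for breakdown, 5 fell, 0 rose and 7 did not pass (median -0.35). Those that fell all encode forms of ATG8, the ubiquitin-like protein that coats the autophagosome. ATG8E read 7.86, 7.58 and 8.29 with water and 6.71, 6.97 and 6.58 with Na2S (-1.16 ± 0.17, adjusted p = 3.45e-05). ATG8D read 7.77, 7.43 and 8.02 with water and 6.94, 6.53 and 6.65 with Na2S (-1.03 ± 0.15), and ATG8F read 10.63, 10.38 and 10.66 with water and 9.74, 9.94 and 9.74 with Na2S (-0.75 ± 0.11). In each of them the Na2S values lay below the water values. ATG8C (-0.47 ± 0.13) and APG8H (-0.39 ± 0.10) fell less, while APG8A (-0.21 ± 0.12), ATG8B (0.08 ± 0.14), ATG8G (-0.08 ± 0.13) and the conjugating enzyme gene ATG3 (-0.32 ± 0.14, adjusted p = 0.1) did not pass. Of 9 genes of energy starvation 6 fell and 1 rose (median -0.54). They included MCCA (-0.87 ± 0.11) and MCCB (-0.79 ± 0.13), the subunits of the methylcrotonyl-CoA carboxylase of leucine breakdown, AKINBETA1 (-0.82 ± 0.12), a subunit of the SnRK1 kinase, and the ubiquitin ligase gene ATL8 (-0.91 ± 0.15), and the rise was that of EXO (0.85 ± 0.10). Leaf senescence genes showed no common direction, with SAG29 and YLS5 (0.40 ± 0.10) higher, WRKY53 lower (-0.38 ± 0.14) and 3 of 6 not passing. The WRKY53 call was lost without water replicate 1 or 3 or Na2S replicate 1 (adjusted p 0.108 to 0.258), and in 6 of the other alternatives (0.0555 to 0.106).

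Protein folding genes were on the high side. Of 7 genes of heat shock and the unfolded protein response 5 rose, 0 fell and 2 did not pass (median 0.58). Next to AT5G48570 (ROF2), the cytosolic chaperone gene Hsp70-2 read 6.63, 6.51 and 6.39 with water and 8.87, 9.0 and 8.93 with Na2S (2.42 ± 0.11, adjusted p = 8.3e-12). BZIP60, a factor of the unfolded protein response of the endoplasmic reticulum, rose by 0.68 ± 0.13, BZIP17 by 0.58 ± 0.12 and the co-chaperone gene ATERDJ3B by 0.32 ± 0.10. All 5 had separate groups, as most passing probe sets did. BZIP28 (0.09 ± 0.12) and the calreticulin gene CRT1b (0.18 ± 0.13) did not pass. Of 6 genes of respiration and its bypasses 2 rose, CYTC-2, a cytochrome c, from 8.75, 8.75 and 8.93 to 10.33, 10.32 and 10.23 (1.48 ± 0.10, adjusted p = 1.04e-09), and NDB2, an external NADH dehydrogenase of the mitochondrion, from 5.93, 5.75 and 5.95 to 7.26, 7.22 and 7.20 (1.35 ± 0.10, adjusted p = 4.25e-09). The other cytochrome c gene, CYTC-1, differed by -0.06 ± 0.10.

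**Figure D3:**
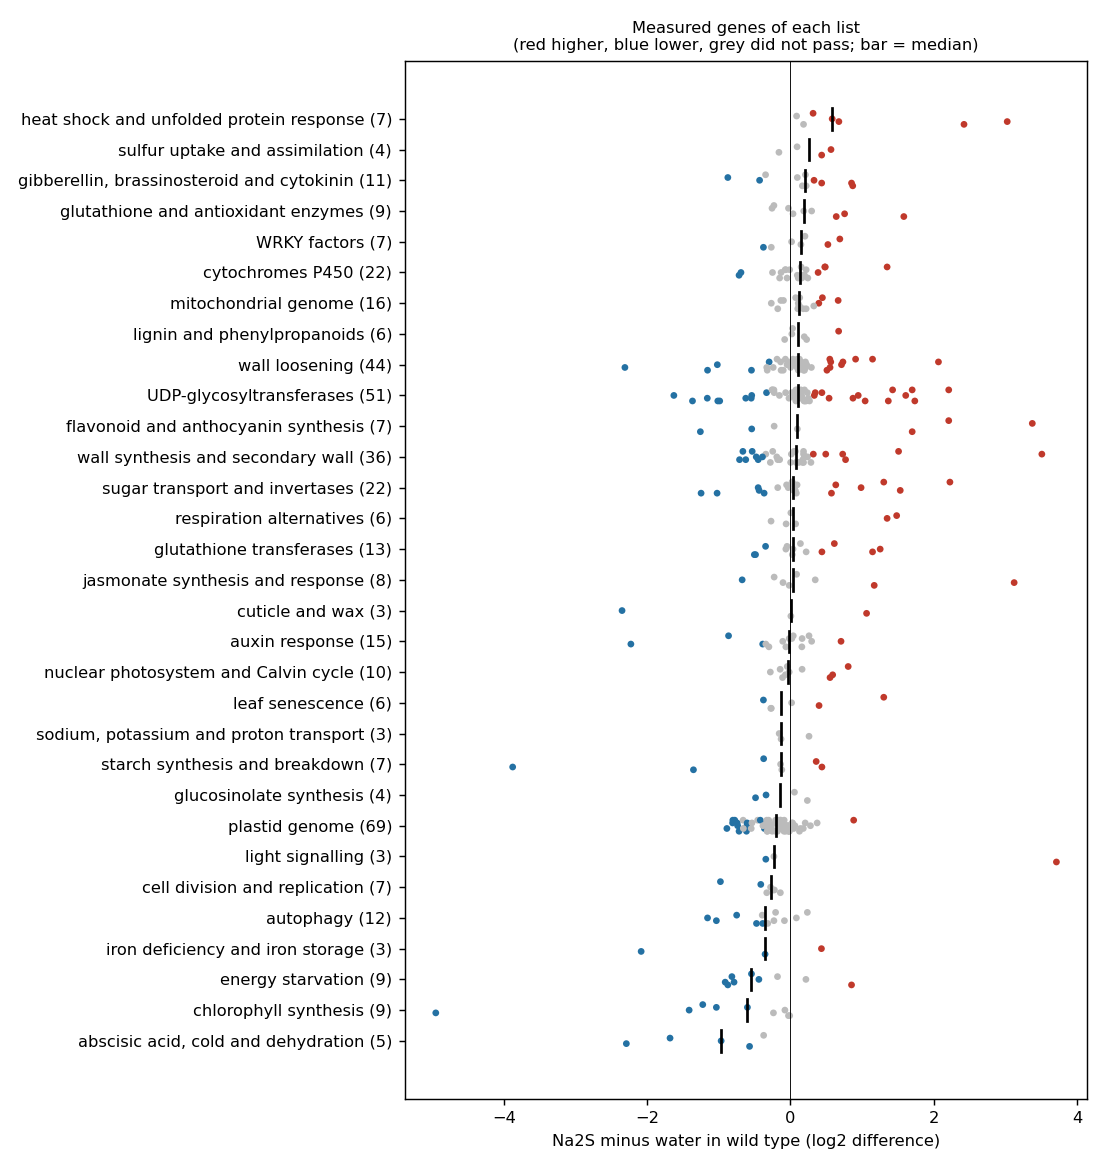
Each point is a measured gene, placed by its log2 difference, Na2S minus water in wild type (horizontal axis), in the row of its list with the number of measured genes in brackets, for theme lists of at least 3 such genes, red if it passed as higher, blue if lower and grey if it did not pass, and the black bar is the median of the list. Medians run from -0.97 for abscisic acid, cold and dehydration to 0.58 for heat shock and the unfolded protein response, and single genes such as PORB (-4.95) and HYH (3.71) lie far from the median of their list.

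Hormone and defence genes held both rises and falls. Of 8 jasmonate genes 2 rose, JMT and MYC4 (1.17 ± 0.13), a transcription factor of jasmonate responses, and 1 fell, the thionin gene THI2.1 (-0.67 ± 0.17), while the plant defensins PDF1.2 (-0.10 ± 0.13) and PDF1.2b (-0.23 ± 0.21) did not pass. Of 15 auxin genes 3 fell, 1 rose and 11 did not pass (median -0.02). IAA29, an auxin-response repressor that also answers to shade, read 6.73, 6.93 and 6.84 with water and 4.45, 4.97 and 4.40 with Na2S, well apart (-2.23 ± 0.14, adjusted p = 1.11e-09). GH3.3, which conjugates auxin to amino acids, fell by 0.86 ± 0.19 on the log2 scale and IAA18 rose by 0.71 ± 0.11. The other fall, GH3.17 (-0.39 ± 0.13), was lost without water replicate 2 or 3 or Na2S replicate 1 (adjusted p 0.0544 to 0.148) and with array weights (0.111). Of 11 genes of gibberellin, brassinosteroid and cytokinin 4 rose and 2 fell (median 0.21). ARR15, a response regulator of cytokinin signalling, was higher by 0.44 ± 0.15, a call lost without water replicate 1 or 3 or Na2S replicate 1 or 2 (adjusted p 0.0543 to 0.151). The gibberellin receptors diverged, with GID1B at 0.87 ± 0.15, GID1C at -0.87 ± 0.15 and GID1A at -0.35 ± 0.15 (adjusted p = 0.106). Both measured ethylene genes were lower (median -0.46). RTE1, which acts on the ethylene receptor ETR1, fell by 0.60 ± 0.11, and EIN3, a transcription factor of ethylene responses, differed by -0.32 ± 0.09, a call lost without water replicate 1 or Na2S replicate 3 (adjusted p = 0.0652 and 0.0666). Both measured genes of the salicylate list, GRX480 (0.04 ± 0.18) and SAG101 (-0.27 ± 0.14), did not pass. Of 7 WRKY factors 2 rose, WRKY47 (0.69 ± 0.15) and ZAP1 (0.52 ± 0.11), and 1, WRKY53, was lower as above.

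Cell wall genes moved in both directions and cell division genes did not rise. Of 44 wall loosening genes 9 rose, 5 fell and 30 did not pass (median 0.10). XTH19, a xyloglucan endotransglucosylase, read 4.56, 4.63 and 5.17 with water and 6.58, 7.04 and 6.94 with Na2S (2.07 ± 0.17, adjusted p = 2.55e-08). EXPA8, an expansin, read 10.90, 11.08 and 10.93 with water and 8.67, 8.72 and 8.59 with Na2S (-2.31 ± 0.11, adjusted p = 2.75e-11). The groups of both genes were far apart, and XTH32 (1.15 ± 0.12) and EXPA9 (-1.16 ± 0.17) followed in either direction. Of 36 wall synthesis genes 6 rose and 7 fell (median 0.08), with TBL37 (1.51 ± 0.11) after TBL26 on the high side and TBL36 (-0.71 ± 0.13) and the xyloglucan synthase gene CSLC04 (-0.66 ± 0.11) on the low side. Among cuticle genes AT5G61590 (DEWAX), whose product represses genes of wax production, read 10.29, 9.95 and 10.43 with water and 7.61, 7.92 and 8.09 with Na2S (-2.35 ± 0.15, adjusted p = 5.63e-10). The wax ester synthase gene WSD1 rose by 1.06 ± 0.14. Of 7 genes of cell division 0 rose, and PRL, a replication factor of the MCM complex, fell by 0.98 ± 0.11 on the log2 scale, while the Aurora kinases AUR1 (-0.33 ± 0.14), AUR2 (-0.14 ± 0.16) and AUR3 (-0.28 ± 0.13) did not pass.

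Markers of leaf cell types gave no common shift. The stomatal lineage genes SPCH (0.23 ± 0.16), MUTE (-0.12 ± 0.11) and FMA (0.06 ± 0.11) did not pass, nor did the root genes EXPA7 and EXPA18 or the meristem gene CLV3 (0.02 ± 0.11). The 2 root genes averaged 4.0 to 4.3 on the wild type arrays, near the lower quartile, where a fall could hardly show. In the list of meristem and dividing cells that holds CLV3, PRL fell as above (-0.98) and AUR1 did not pass. The flower marker SPT was lower (-0.35) and the xylem marker PHV higher (0.44), both calls that were lost when single arrays were left out. TRY, a repressor of trichome fate, read 6.14, 6.56 and 6.40 with water and 9.13, 9.03 and 9.03 with Na2S, high in all 3 treated samples (2.70 ± 0.12, adjusted p = 9.54e-12), while SIM, the other measured gene of its list, differed by -0.24 ± 0.15. The phloem genes went different ways, with CLE44 at -0.68 ± 0.11, CLE41 at 0.05 ± 0.10 and SWEET11 higher as above. RCA and SBPASE, the measured markers of photosynthetic cells, were bright on every array.

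The difference between Na2S and water arrays was another in des1 than in wild type for many probe sets. Untreated wild type and untreated des1 arrays correlated at 0.9451 to 0.9482, and treated ones at 0.9883 to 0.9961. What sets the responses apart was not tested. In des1 8443 probe sets passed (37.1%), 3989 higher (17.5%) and 4454 lower (19.6%). Those that passed in wild type and in des1 in the same direction numbered 1686, which is 24.4% of the wild type calls and 20.0% of the des1 calls, and 2229 passed in opposite directions. The wild type and des1 responses have no array in common, and across the 22746 probe sets, which are not independent, they correlated at -0.05. The difference of the responses passed its own test for 8573 probe sets (37.7%), with the wild type response above that of des1 for 4341 (19.1%) and below it for 4232 (18.6%). The 8573 held 4941 of the 6919 wild type calls (71.4%) and 1374 of the 1492 of at least 2-fold (92.1%). All 30 of the largest wild type changes differed in this test, and in des1 16 of them passed, 8 in the opposite direction, and 14 did not pass. The 6919, the 1492 and the 30 were chosen by their wild type difference, which is also a part of this test. High shares are therefore favoured by the choice, and they describe these probe sets only.

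Named genes show the forms this took. PORB, at 12.44 to 12.71 in untreated wild type, stood at 6.02, 6.18 and 6.25 in untreated des1 and at 7.67, 7.73 and 7.63 in treated des1, a rise of 1.53 (wild type minus des1 response -6.48 ± 0.14, limma adjusted p = 6.6e-15). In treated plants of either genotype PORB thus lay between the untreated groups. CHLI2, HEME1, HEME2 and GSA1 likewise fell in wild type and rose in des1, by 0.82, 1.69, 1.19 and 0.57, and 7 of the 9 chlorophyll genes differed between the responses. HYH was at 9.01, 9.11 and 8.86 in untreated des1 and differed there by 0.14 without passing, and DPE1 was at 5.02, 4.63 and 4.68 and differed by -0.05 without passing, so that each stood in both des1 groups near its level in treated wild type. SAG29 rose in wild type (1.3) and fell in des1 (-4.72). Its mean was 5.04 in untreated and 6.34 in treated wild type, against 10.97 in untreated and 6.25 in treated des1. DFR fell less in wild type (-1.26) than in des1 (-5.40), and in treated wild type it lay near the lower quartile. Of the 12 autophagy genes 5 fell in wild type (median -0.35) and 11 in des1 (median -0.77). The difference of the responses passed for 6 of them, 5 with the lower value in des1, such as ATG8B (1.35) and ATG8G (1.24), and 1, ATG8E (-0.89), with the lower value in wild type. It did not pass for the others, among them ATG8D (0.05), ATG8F (0.13) and ATG8C (0.04). Nor did it pass for LTI30 (-0.25), COR15A (-0.02) and SIR (0.36), while the response of COR15B was lower in wild type (-2.03) and BHLH101 fell more in des1 (0.83). Of the 5 genes of abscisic acid, cold and dehydration the difference passed for 3, and 2 of these had the lower value in des1. The median response of that list was -0.97 in wild type and -1.24 in des1.

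Where the groups lay can also be given without a test. Of the 1492 transcripts that changed at least 2-fold in wild type, untreated des1 was nearer to treated than to untreated wild type in 1254 (84.0%), and treated des1 was so in 1466 (98.3%). These transcripts were chosen by their wild type difference, so the shares describe them and not all transcripts. Leaving out any 1 of the 6 wild type arrays left 5979 to 6560 calls.

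**Figure D4:**
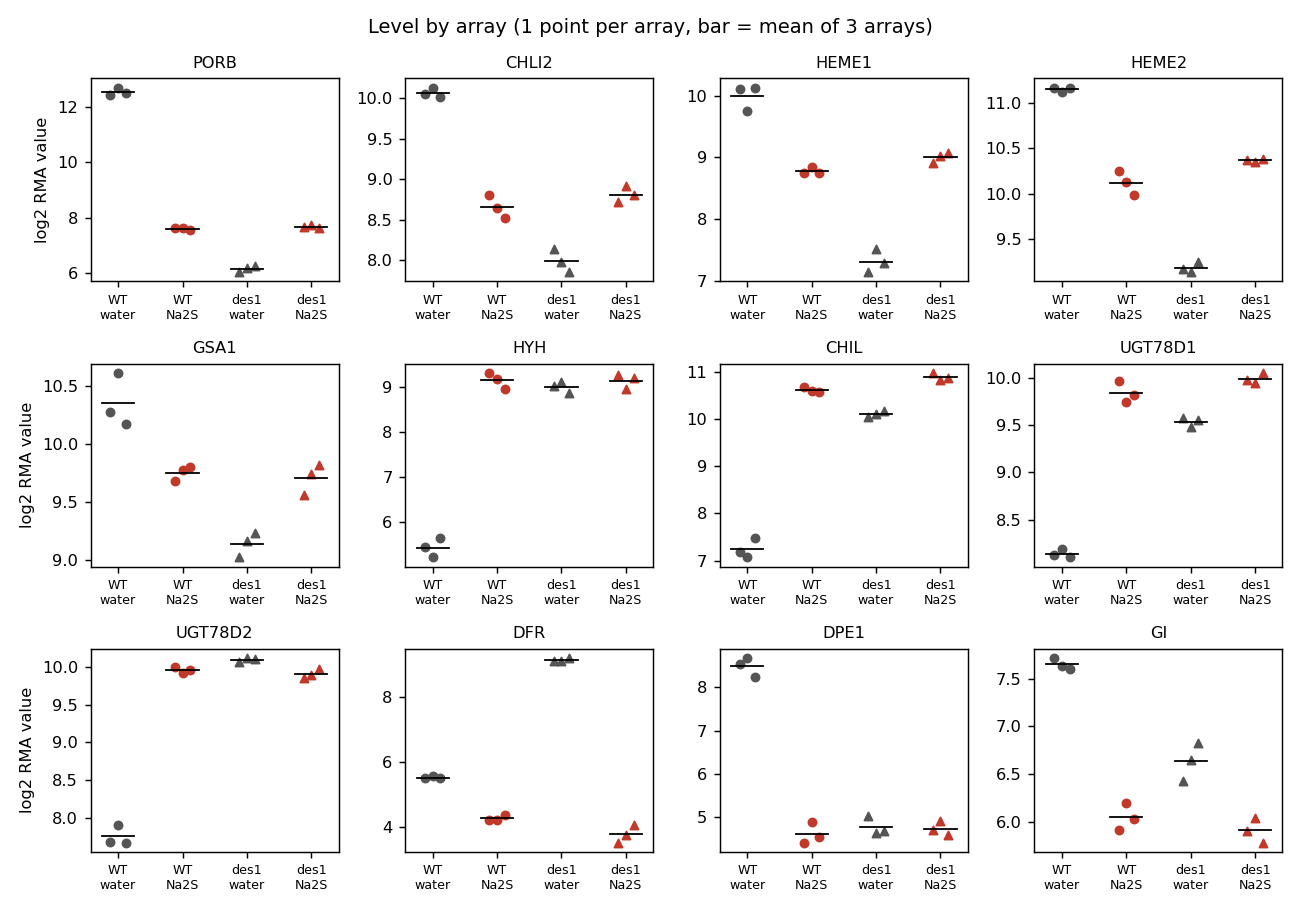
Log2 level by array of 12 genes in the 4 groups, circles for wild type and triangles for des1, grey for water and red for Na2S, with a bar at the mean of 3 arrays and a separate vertical scale for each gene. In wild type PORB, CHLI2, HEME1, HEME2, GSA1, DFR, DPE1 and GI are lower with Na2S and HYH, CHIL, UGT78D1 and UGT78D2 are higher, and the 5 chlorophyll genes are higher with Na2S in des1.

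**Figure D5:**
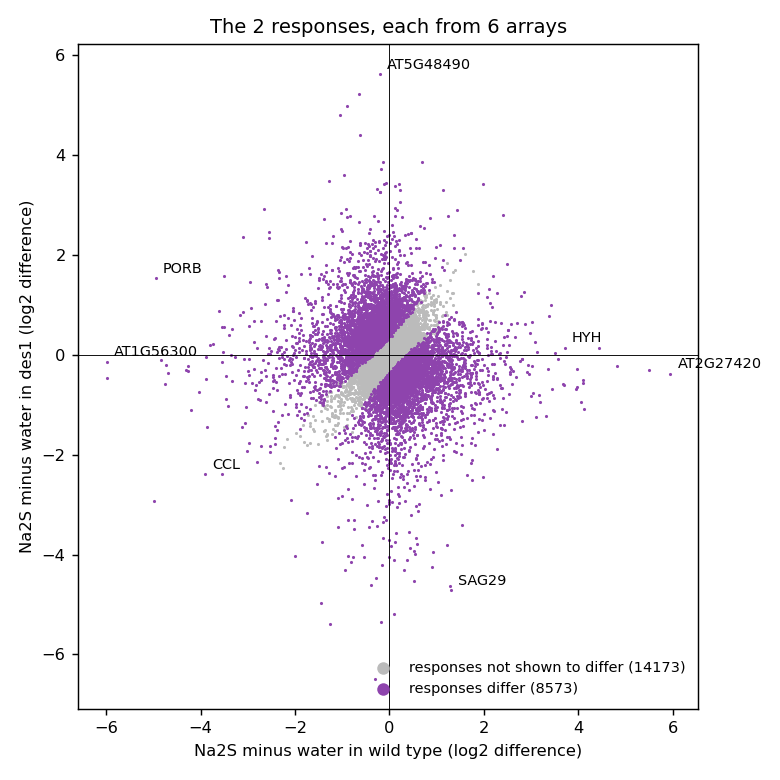
Each point is 1 of the 22746 probe sets, placed by its log2 difference, Na2S minus water, in wild type (horizontal axis) and in des1 (vertical axis), purple for the 8573 whose responses differ by test and grey for the rest. The cloud has no common diagonal (correlation -0.05), and of the 30 largest wild type changes 14 did not pass in des1, such as AT1G56300 (-0.14), while others lie off 0 on the des1 axis, such as AT3G62550 (-2.92), CCL (-2.39) and PORB (1.53).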

How the data were processed

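Leaf RNA (500 ng, labelled with the GeneChip 3′ IVT Express kit per the labels' protocols) was read on ATH1 arrays. The values deposited by the authors are log2 expression values made by RMA (affy), according to the labels and per the submitters' processing notes. Software versions, and which arrays went into RMA together, are not given in the sources used here. RMA brings arrays processed together to a common distribution, so a shift shared by most transcripts would be removed, and it compresses differences of dim transcripts. No detection calls came with the values, and arrays have no read depth, so precision is limited by how many arrays there are.

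The values were used as deposited. Group means were estimated over the 12 arrays together with limma 3.58.1 in R 4.3.3 (lmFit and eBayes, neither trend nor robust, 8 residual degrees of freedom), and Na2S was compared with water in wild type, in des1 and between them. Benjamini-Hochberg adjustment ran over 22746 probe sets with a threshold of 0.05, and the fit was tested on simulated data. SE is the limma standard error, with 3 arrays per group. Of the probe sets tested 13513 had 1 gene listed, 503 several and 8730 none in the platform annotation used here, and 13436 of the first were matched to a locus of TAIR10.1, from which only names were taken. Probe sets with none listed may still have a gene.

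Genes named are the 15 largest rises and the 15 largest falls with 1 gene listed and no overlap between groups, the 5 largest differences of responses in each direction, up to 3 rises and 3 falls of each list and up to 2 of its brightest members that did not pass. Further members were named after their values were seen. The members and the gene lists (41 themes and 8 sets of markers, of which phosphate starvation and water channels had no measured gene) were chosen with earlier results of these data known. Of several probe sets of a gene the brightest was used. The lists that held a single measured gene and are not described above were chlorophyll breakdown (NOL, -0.06), cytosolic ribosomal proteins (PGY1, -0.16), the proteasome (RPN12a, -0.16) and nitrogen uptake (NRT2.5, 0.09), with 0 passing. The alternatives were quantile normalization again, arrays centred on their medians, no probe sets below the 40th percentile of mean level, trended robust variances, array weights, the wild type arrays by themselves, a block for the replicate number, calls of at least 2-fold, only those probe sets with 1 gene, and leaving out every array once. The labels name no pairing of samples, and replicate numbers were not taken as pairs. DES1 transcript is not analysed here.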

Additional observations from a re-analysis of the deposited data

Results flagged for a closer look

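The response to Na2S differed between wild type and des1 for 8573 probe sets (37.7% of those tested) in limma's test of the difference of the responses, and each value below is the wild type response minus the des1 response on the log2 scale for a gene that passed this test. Where the value is positive, the gene rose more or fell less in wild type. The size of such a value depends on the level of the gene in the 4 groups, and untreated wild type and untreated des1 lay far apart for many of them. What sets the responses apart was not tested.

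The 5 largest positive values were those of AT2G27420 (6.33), SAG29 (6.02), AT5G39520 (5.17), the chitinase gene CHI (AT2G43570, 5.04) and AT4G23680 (5.03). AT2G27420 rose by 5.95 in wild type and was lower by 0.38 in des1, where it was already high with water. The other 4 fell steeply in des1, SAG29 by 4.72, AT5G39520 by 5.35, CHI by 4.53 and AT4G23680 by 3.81 on the log2 scale, and in wild type AT5G39520 did not pass (-0.18) while CHI rose by 0.51. The 5 largest negative values were those of PORB (-6.48), AT4G29020 (-5.88), AT1G56300 (-5.85), AT5G48490 (-5.82) and AT5G45670 (-5.03). AT5G48490 did not pass in wild type (-0.20) and rose by 5.62 in des1. AT4G29020 and AT5G45670 fell in wild type by 0.90 and 0.63 on the log2 scale and rose in des1 by 4.98 and 4.40.

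Among the largest wild type changes the positive values were those of AT3G28270 (4.53), AT5G42760 (4.31), AT5G54130 (3.97), AT5G15950 (3.82), AT5G47610 (3.66), HYH (3.57), TBL26 (3.47), AT1G64500 (3.25), AT1G26790 (3.15), JMT (3.07), AT3G15310 (2.82), CHIL (2.60), AT5G48570 (2.37) and AT1G06000 (1.63). The negative ones were those of AT5G62360 (-4.74), AT4G30660 (-4.53), AT2G39920 (-4.33), AT3G47160 (-4.16), AT4G30650 (-4.10), BGLU44 (-4.00), AT4G16146 (-3.93), DPE1 (-3.82), AT1G70820 (-3.59), AT2G15960 (-2.42), AT3G62550 (-2.07), CCL (-1.51) and AT3G51660 (-1.16).

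Of the 443 measured members of the gene lists 55 passed in opposite directions in wild type and des1. Over all 22746 probe sets 2229 did so, and the count of 55 is no result about the lists. Values are given for the 36 list members with opposite calls that the rule on list members names and that are not above. Those that rose in wild type and fell in des1 were XTH19 (2.85), TBL37 (2.81), PWD (AT4G24450) (2.29), GSTU16 (2.21), NDB2 (2.2), GR1 (2.01), psbI (1.83), GID1B (1.75), WRKY47 (1.74), ccb452 (1.56), SWEET11 (1.53), APL3 (1.46), CSLA01 (1.43), CYP71B24 (1.26), CYP71B6 (1.25), nad9 (1.16), nad1 (1.16), GR (1.13), BZIP60 (1.09), ZAP1 (0.97), ILR3 (0.80) and YLS5 (0.68). Those that fell in wild type and rose in des1 were AT5G61590 (-3.88), EXPA8 (-3.09), HEME1 (-2.91), TBL45 (-2.82), CSLC04 (-2.42), CHLI2 (-2.23), PRL (-1.90), TMT1 (-1.75), EXLA1 (-1.68), GSTF4 (-1.67), SWEET16 (-1.64), ATL8 (-1.43), TOPII (-1.39) and RR16 (-0.86). The wild type calls of psbI, CYP71B24, PWD (AT4G24450), APL3 and TOPII were lost when single arrays were left out, that of TOPII also with quantile normalization again (adjusted p = 0.0741). They were lost for CYP71B24 without water replicate 2 or Na2S replicate 1 or 2 (adjusted p 0.0835 to 0.11) and for TOPII without water replicate 1 or Na2S replicate 1 or 3 (0.0643 to 0.0926), and the values of the other 3 are given with their lists.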

How the results depend on the processing

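The count of wild type calls stayed within 1.5 times of 6919 with quantile normalization again (7106), arrays centred on their medians (7167, of which 4106 higher and 3061 lower), dim probe sets left out (6570), trended robust variances (7027), array weights (9538) and wild type arrays alone (6452). Probe sets of 1 gene only gave 3526 calls (1729 higher, 1797 lower) in wild type, 4442 (2127 and 2315) in des1 and 4472 (2215 and 2257) for the difference of the responses, since fewer probe sets were tested. A 2-fold minimum gave 1492 (713 and 779), 1722 (788 and 934) and 3431 (1745 and 1686). With 1 array left out the counts ran from 5979 to 6560 in wild type (2919 to 3266 higher, 3060 to 3294 lower), from 7432 to 8171 in des1 (3493 to 3887 and 3901 to 4284) and from 7937 to 8571 for the difference (4003 to 4345 and 3898 to 4239). Leaving out des1 arrays, and all alternatives for des1, were added after the data were seen. The deviations of same-numbered water and Na2S arrays correlated at -0.06, -0.06 and 0.03, so the numbers were not taken as pairs, and the replicate block gave 6728 calls (3302 higher, 3426 lower), which ended the WRKY53 call (adjusted p = 0.0689) and added WES1 (-0.30, 0.0498). Of 188 passing genes that were followed, 167 kept their call in each alternative that gave a value. The values of the 21 others, all with sizes under 0.9, are given with their genes, except that SPT (-0.35), a flower marker, was lost without water replicate 1 or 3 (adjusted p = 0.0552 and 0.0609) and PHV without water replicate 2 or Na2S replicate 1 (adjusted p = 0.0959 and 0.0765). The reverse, a gene that passed in an alternative but not in the main fit, was seen 35 times, often with array weights. This counts a gene once for each alternative in which it passed, so the genes are fewer. Examples with array weights are ATG3 (adjusted p = 0.0012), GID1A (0.00168), SAG101 (0.014) and HEMB1 (0.0288). ATG3 also passed without water replicate 2 (0.0342) and SAG101 without Na2S replicate 1 (0.0065). Groups of 3 arrays, dim levels near the background and the missing harvest hour limit all of these results.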

Other observations

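Families put together after the values were seen add to the picture, and their counts are no support for a group. Of 7 tubulin genes 6 fell and 1 rose. TUB5, a beta-tubulin, read 10.68, 10.78 and 10.72 with water and 8.03, 8.09 and 7.92 with Na2S (-2.71 ± 0.10 SE, n = 3 per group, limma adjusted p = 3.19e-13), TUB1 fell by 1.65 ± 0.15 on the log2 scale, and TUA1, an alpha-tubulin, rose by 1.17 ± 0.10. In des1 6 of the 7 rose and 0 fell. Of 5 LIM-domain genes, a family that holds actin-binding proteins, WLIM2a (-2.96 ± 0.11) and WLIM1 (-1.57 ± 0.12) fell and PLIM2a (1.73 ± 0.12) rose. All 4 measured jacalin-related lectins fell, from JAL23 (-1.72 ± 0.25) to JAL33 (-1.08 ± 0.12), and PYK10, a beta-glucosidase of endoplasmic reticulum bodies in the root and seedling, fell from 6.60, 6.49 and 6.99 to 3.70, 3.47 and 3.67, all dim with Na2S. Of 21 beta-glucosidases 4 fell and 2 rose, with BGLU16 (-1.38 ± 0.14) and BGLU42 (-1.23 ± 0.12) after BGLU44 and PYK10. Of 11 nitrate and peptide transporters 7 rose and 0 fell, led by AT1G68570 (NPF3.1, 1.92 ± 0.12), AT3G21670 (NPF6.4, 1.37 ± 0.11) and AT2G26690 (NPF6.2, 1.22 ± 0.11).

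Single genes outside the lists, chosen after their values were seen, fall near themes of the report. Among chaperone genes AT3G09440 (2.5 ± 0.10), Hop3 (2.45 ± 0.19) and Fes1A (1.78 ± 0.13) rose, whereas Fes1B fell from 8.43, 8.58 and 8.72 to 5.21, 4.89 and 5.10 (-3.51 ± 0.12, limma adjusted p = 2.52e-13). Of carbon enzymes PPDK, the pyruvate phosphate dikinase, rose by 1.87 ± 0.09 and ATSPS4F, a sucrose phosphate synthase, by 1.61 ± 0.09, and PDC2, a pyruvate decarboxylase, fell by 1.98 ± 0.11 on the log2 scale. Among sulfur genes MGL, the methionine gamma-lyase, rose by 1.26 ± 0.16, and SUFE2, an activator of cysteine desulfurase, fell by 1.15 ± 0.13, to dim levels on 2 of 3 Na2S arrays. The transcription factor genes ORA47 (-3.07 ± 0.12), BZIP61 (-2.55 ± 0.17) and STZ (-1.81 ± 0.10) fell, as did the calmodulin-like gene CML38 (-2.24 ± 0.13), and CML41 rose by 1.55 ± 0.10. STZ fell by about as much in des1 (-1.74), and BZIP61 rose there (2.45).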
